A study of Mus musculus with 16 samples.

Results

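The genes described here are the Ikaros family, Ikzf1 to Ikzf5, taken as every probe set that the platform annotation gives to exactly one of these symbols, with the brightest probe set standing for each gene. The rule found 5 genes and 6 probe sets, out of 19531 genes and 25108 probe sets on the array, and all 5 genes passed the filter on dim genes that left 12798 genes for testing. RNA came from spleen cells of 6-week-old males, sorted in 2 rounds on a MoFlo to a stated purity above 99.0%, and was hybridized to Affymetrix arrays. Regulatory T cells (Treg) were CD3+, CD4+ and GFP+, and conventional T cells (Tconv) were CD3+, CD4+ and GFP-. All mice carried a GFP reporter at Foxp3, the gene of the Treg transcription factor. It was either Foxp3-GFP, in which GFP is part of the Foxp3 protein (fusion), or Foxp3-IRES-GFP, in which GFP is made separately from the same transcript (ires). Each allele was studied on NOD, a background prone to autoimmune diabetes, and on B6. That gave 8 groups of 2 arrays: NOD fusion, NOD ires, B6 fusion and B6 ires Treg, and the same 4 lines of Tconv. The labels do not say whether the 2 arrays of a group came from separate mice, so the p-values rest on array-to-array spread alone, and that may be technical.

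Ikaros family proteins are zinc finger transcription factors of blood cells. Fingers near the amino end bind DNA, and fingers at the carboxyl end let members pair with themselves and with each other. Ikaros (Ikzf1) shapes lymphocyte development, Helios (Ikzf2) and Eos (Ikzf4) are known for their place in Treg, Aiolos (Ikzf3) is best known from B cells and from activated T cells, and Pegasus (Ikzf5) is the most distant member in sequence. Several members recruit the nucleosome remodelling and deacetylase complex NuRD, and Eos works with Foxp3 and the corepressor CtBP1 in silencing genes of Treg.

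The labels were checked against cell type markers. The 5 Treg markers Foxp3, Il2ra, Ctla4, Tnfrsf18 and Lrrc32 summed to intensities of 10267 to 14437 in Treg, against 707.1 to 1335 in Tconv. CD4 T cell markers summed to 21201 to 25948 in Treg and 20310 to 23986 in Tconv. Sums are compared within a list only, since probe sets have no common scale. For other cells they overlapped between Treg and Tconv. B cell markers gave 373.4 to 480.8 in Treg and 312.2 to 620.6 in Tconv, with the top value in NOD fusion Tconv replicate 1. Myeloid markers gave 336.2 to 462.4 in Treg and 360.8 to 533.2 in Tconv. Dendritic cell markers gave 317.3 to 409.6 in Treg and 341.0 to 454.7 in Tconv, and CD8 T and NK cell markers 656.5 to 945.4 in Treg and 863.2 to 1220 in Tconv. Within a background some sums did not overlap. B cell sums on B6 were 413.5 to 480.8 in Treg and 340.6 to 378.9 in Tconv. CD8 T and NK cell sums on NOD were 656.5 to 838.6 in Treg and 863.2 to 1050 in Tconv. Of the 8 B cell genes on the array, Cd79a, Ms4a1, Pax5, Cr2, Fcer2a and Ebf1 did not pass the filter. Of the other two, Cd79b was higher in Treg by 0.69 ± 0.09 (adjusted p = 1.03e-05), and Blk differed by -0.09 ± 0.06. Of 5 tested CD8 T and NK cell markers 3 had an adjusted p under 0.05, against 28.6% of all tested genes. These were Cd8b1 at -0.42 ± 0.08, Cd8a at 0.23 ± 0.08 and Klrd1. Klrd1 had 3.71 to 4.53 in Treg, all below the filter level of 6.06, and 5.75 to 7.49 in Tconv. It passed the filter only through Tconv arrays, where it was high, so nothing is read from its call. The myeloid marker Fcgr3, at -0.21 ± 0.07, and the dendritic cell marker H2-Ab1, at -0.38 ± 0.10, also had an adjusted p under 0.05. No array intensity is at 0. Fewer cells of a type and less RNA per cell cannot be told apart in such bulk samples.

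All values below are log2 intensities, and each difference is a log2 difference with its standard error (SE) from limma, fitted to the 8 groups together. A gene was called at a Benjamini-Hochberg adjusted p under 0.05. Levels are compared within a gene only, since the brightness of different probe sets has no common scale.

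The comparison of Treg with Tconv asked how the family differs between the sorted populations. Helios, Eos and Aiolos transcripts were higher in Treg, Ikaros transcripts were lower, and the Pegasus probe set did not pass the test. Thus 4 of the 5 genes were called, against 28.6% of all tested genes. The 3 that rose compare with 16.7% of all tested genes called higher, and the 1 that fell with 11.9% called lower. All 3 that rose did so by at least 2-fold, as 1.95% of all tested genes did. The median over the 5 genes was 1.17, and that over all tested genes was -0.01.

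Helios gave the widest separation of the family. Ikzf2 (probe set 10355312) had values of 10.93, 11.20 and 11.32 in Treg (lowest, median and highest of 8 arrays), against 6.71, 7.31 and 8.17 in Tconv. The groups were more than 2 log2 units apart at their nearest arrays. The difference of 3.74 ± 0.09 is a 13.4-fold excess in Treg (adjusted p = 6.87e-16). Levels over the 4 lines together were tight in Treg (SD 0.16, n = 8) and looser in Tconv (SD 0.44, n = 8). These SDs hold differences between lines as well as between arrays of a group.

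Eos came next. Ikzf4 (probe set 10373502) stood at 8.06, 8.56 and 9.19 in Treg and at 6.70, 6.89 and 7.14 in Tconv, again as lowest, median and highest. Its difference was 1.72 ± 0.09, or 3.30-fold (adjusted p = 1.47e-11). For this gene the spread lay in the cells that had more of it, with an SD of 0.34 in Treg and 0.13 in Tconv (n = 8 each).

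Aiolos was present on both sides of the sort. Ikzf3 (probe set 10390640) had 10.27, 10.73 and 10.83 in Treg, against 9.34, 9.44 and 9.60 in Tconv. The groups did not overlap, and the difference was 1.17 ± 0.06, or 2.25-fold (adjusted p = 2.35e-11). NOD fusion Tconv replicate 1, the array with the highest B cell marker sum, had 9.34 for Ikzf3, the lowest of the 16 arrays. On B6, B cell sums were higher in Treg (413.5 to 480.8) than in Tconv (340.6 to 378.9), the direction of Ikzf3. On NOD they overlapped, at 373.4 to 436.5 in Treg and 312.2 to 620.6 in Tconv. Of the 2 tested B cell markers, Cd79b was higher in Treg and Blk was not, at -0.09 ± 0.06. The other B cell markers on the array did not pass the filter. The part of B cell RNA in the Aiolos difference was not tested.

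Ikaros ran the other way. Ikzf1 (probe set 10374333) had 10.04, 10.43 and 10.69 in Treg and 10.98, 11.16 and 11.29 in Tconv. Every Treg array lay below every Tconv array. The difference was -0.75 ± 0.06, so the transcript was 1.68-fold lower in Treg (adjusted p = 1.07e-08). Groups as cleanly separated as those of Ikzf1, Ikzf2, Ikzf3 and Ikzf4 were seen for 8.28% of all tested genes.

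**Figure D1:**
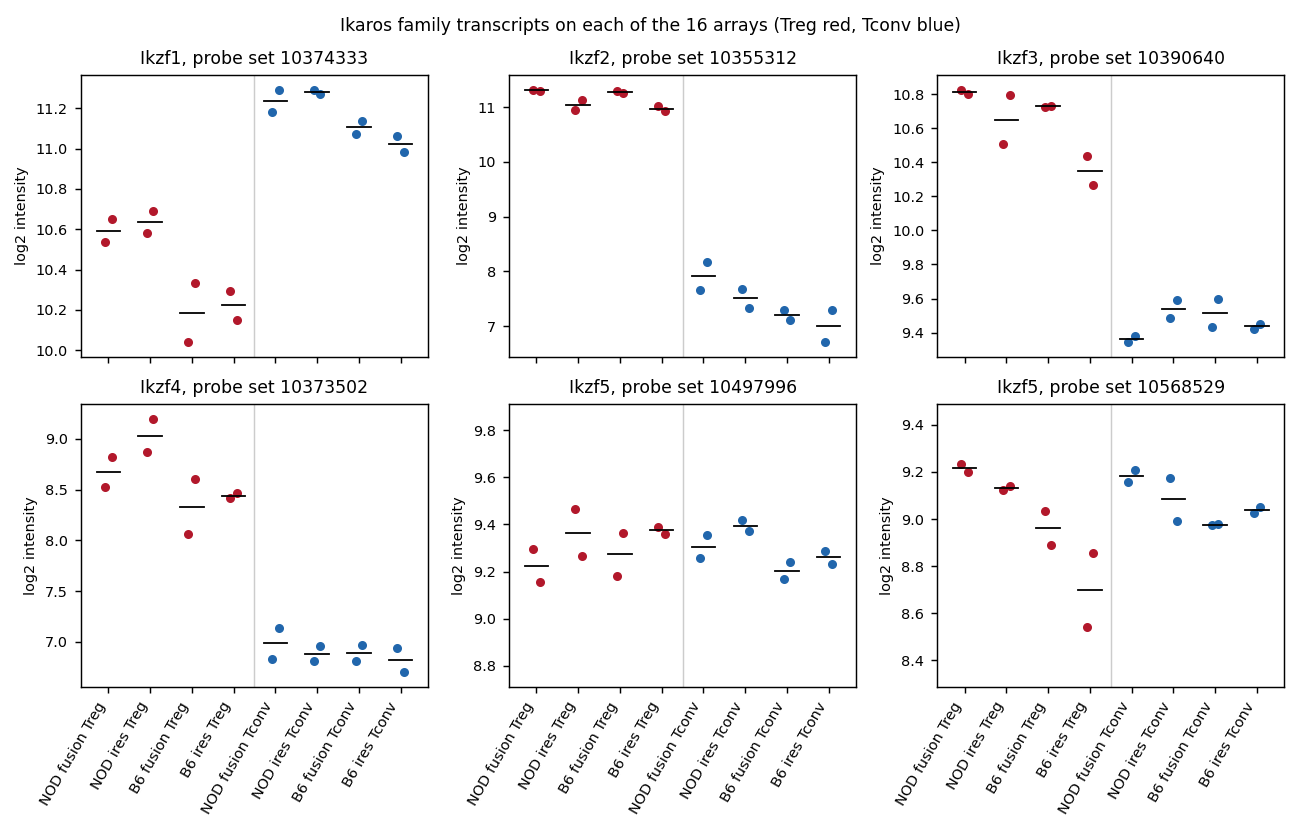
Log2 intensity (vertical axes) of the 6 Ikaros family probe sets on each of the 16 arrays, by group (horizontal axes), with Treg in red and Tconv in blue; bars are means of the 2 arrays. For Ikzf1, Ikzf2, Ikzf3 and Ikzf4 the 8 Treg arrays do not overlap the 8 Tconv arrays, while both Ikzf5 probe sets overlap.

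Pegasus was read by 2 probe sets, and they need to be told apart. The brighter one, 10497996, had 9.16, 9.33 and 9.46 in Treg and 9.17, 9.27 and 9.42 in Tconv. These ranges overlap almost wholly, and the difference was 0.02 ± 0.06 (95% interval -0.10 to 0.14, adjusted p = 0.866). The other, 10568529, had 8.54, 9.08 and 9.23 in Treg and 8.97, 9.04 and 9.21 in Tconv, a difference of -0.07 ± 0.06 (adjusted p = 0.461). The order of probe set numbers follows the chromosomes on this array. Of the 20 probe sets nearest in number to 10568529, 19 belong to genes of chromosome 7, where Ikzf5 lies in GRCm38.p6. Of the 20 nearest to 10497996, 19 belong to chromosome 3 and 0 to chromosome 7. For the probe sets of Ikzf1, Ikzf2, Ikzf3 and Ikzf4, between 18 and 20 of 20 lay on the gene's own chromosome. Which sequence the brighter Ikzf5 probe set reads was not tested, so its values are uncertain as a measure of Ikzf5.

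The same 4 genes were called, in the same directions, in each of the 4 mouse lines taken alone. The percentages of all tested genes called were 11.0% in NOD fusion, 9.26% in NOD ires, 14.1% in B6 fusion and 9.88% in B6 ires. Ikzf2 was higher in Treg by 3.39 in the NOD fusion line, 3.54 in NOD ires, 4.08 in B6 fusion and 3.97 in B6 ires (SE 0.18 each). In folds this is 10.5, 11.6, 16.9 and 15.7. The Helios gap was thus narrower in both NOD lines than in both B6 lines, and the test of that difference, NOD minus B6, gave -0.56 ± 0.18 (adjusted p = 0.220), which did not pass. Over the 25 alternative fits of the closing section, this NOD minus B6 difference ran from -0.71, without B6 ires Tconv replicate 2, to -0.28.

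Eos showed the opposite order. Ikzf4 was higher in Treg by 1.69 in NOD fusion, 2.15 in NOD ires, 1.44 in B6 fusion and 1.61 in B6 ires (SE 0.17 each). The NOD minus B6 difference of 0.39 ± 0.17 did not pass either (adjusted p = 0.437). Ikzf3 differed by 1.45 in NOD fusion, 1.11 in NOD ires, 1.21 in B6 fusion and 0.91 in B6 ires (SE 0.12 each), so that on each background the fusion line had the wider gap. The test of fusion minus ires gave 0.32 ± 0.12 (adjusted p = 1.00) and did not pass. Ikzf1 differed by -0.64 in NOD fusion, -0.65 in NOD ires, -0.92 in B6 fusion and -0.80 in B6 ires (SE 0.12 each). NOD minus B6 was 0.21 ± 0.12 for this gene (adjusted p = 0.611).

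**Figure D2:**
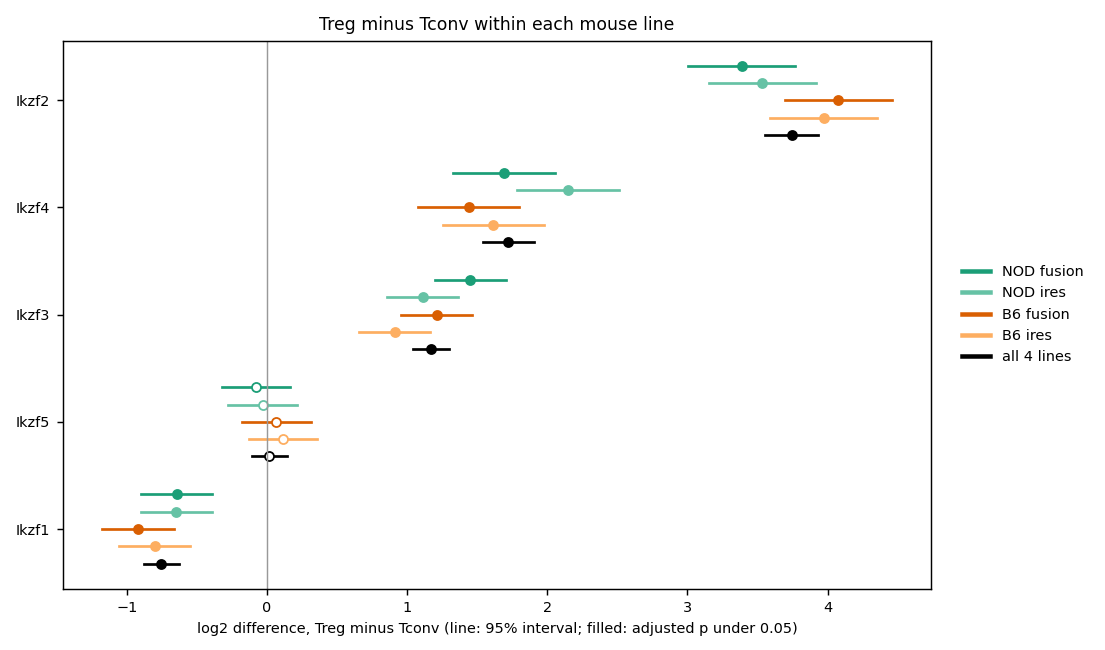
Log2 difference of Treg minus Tconv (horizontal axis) for each Ikaros family gene (vertical axis) in each mouse line and over the 4 lines; lines are 95% intervals and filled points have an adjusted p under 0.05. Ikzf2 lies between 3.39 and 4.08 in the 4 lines, Ikzf4 between 1.44 and 2.15, Ikzf3 between 0.91 and 1.45 and Ikzf1 between -0.92 and -0.64.

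The comparison of the reporter alleles asked whether joining GFP to Foxp3 goes with other levels of these genes. No member was called between fusion and ires Treg over both backgrounds by limma, where 0.609% of all tested genes were, and 2 of the 5 had an unadjusted p under 0.05. These were Ikzf2 and Ikzf3. Ikzf2 had 11.32 and 11.29 in NOD fusion and 11.29 and 11.26 in B6 fusion Treg, against 10.95 and 11.13 in NOD ires and 11.02 and 10.93 in B6 ires Treg. The 4 fusion arrays lay above the 4 ires arrays, a separation that 2.15% of all tested genes showed in either direction, yet the difference of 0.28 ± 0.13 did not pass (95% interval 0.01 to 0.55, adjusted p = 0.628).

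Ikzf3 had 10.83 and 10.80 in NOD fusion and 10.73 and 10.73 in B6 fusion Treg, against 10.50 and 10.80 in NOD ires and 10.43 and 10.27 in B6 ires Treg. Here NOD ires replicate 2 reached the fusion arrays. The difference was 0.27 ± 0.09 (95% interval 0.09 to 0.45, adjusted p = 0.260). Ikzf4 leaned the other way, at -0.23 ± 0.12 (95% interval -0.49 to 0.02, adjusted p = 0.742). Ikzf1 differed by -0.04 ± 0.09 (95% interval -0.22 to 0.14), and the brighter Ikzf5 probe set by -0.12 ± 0.08 (95% interval -0.29 to 0.05).

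Taken within a background, no member was called in NOD Treg (0.102% of all tested genes were, and 0 members had an unadjusted p under 0.05) or in B6 Treg (0.344%, and 1 member). That member was Ikzf3 in B6, at 0.38 ± 0.12 (adjusted p = 0.322). In Tconv, no member was called between fusion and ires, where 0.0234% of all tested genes were, and 1 had an unadjusted p under 0.05. This was Ikzf2, at 0.30 ± 0.13 (adjusted p = 0.999), a difference about as large as in Treg, and Treg minus Tconv was -0.02 ± 0.18 (95% interval -0.40 to 0.36). The tests of the allele effect in NOD minus B6 Treg (0.0391% of all tested genes called) and in Treg minus Tconv (0.0469%) called no member. An unadjusted p under 0.05 was reached by 0 members in the first and by 1, Ikzf3, in the second.

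The comparison of NOD with B6 asked whether the genetic background shifts the family. In Treg, Ikaros and Eos were higher on NOD, and in Tconv, Helios was. Thus 2 of 5 members were called in Treg, against 21.0% of all tested genes (11.2% called higher), and 1 of 5 in Tconv, against 15.9% (9.39% called higher). Of all tested genes, 1433 were called higher and 1257 lower on NOD in Treg, and 1202 higher and 831 lower in Tconv. With each array centred on its median these were 1650 and 753 in Treg and 1934 and 368 in Tconv. CD4 T cell marker sums were higher on NOD in both populations. They were 24019 to 25948 in NOD Treg and 21201 to 23529 in B6 Treg. In Tconv they were 22898 to 23986 on NOD and 20310 to 21260 on B6. Of 7 tested CD4 T cell markers 2 were called higher and 1 lower in Treg, and 2 higher in Tconv. Marker sums of other cells moved with background in Treg too. Myeloid sums were 336.2 to 388.2 in NOD Treg and 436.9 to 462.4 in B6 Treg, with 2 of 4 tested markers called lower. Itgam differed by -0.45 ± 0.13, and Lyz2 had 4.92 to 5.76 in NOD Treg and 5.67 to 6.25 in B6 Treg. CD8 T and NK cell sums were 656.5 to 838.6 in NOD Treg and 839.6 to 945.4 in B6 Treg, with 3 of 5 called, Cd8a at -0.50 ± 0.12, Cd8b1 at -0.57 ± 0.11 and Eomes at 0.63 ± 0.15. Of the 2 tested B cell markers Blk was called, at 5.56 to 5.66 in NOD Treg and 5.87 to 6.16 in B6 Treg. Lyz2 and Blk lay below the filter level in all NOD Treg arrays, so no size is given. The part of all these markers in the differences of Ikzf1 and Ikzf4 in Treg, and of Ikzf2 in Tconv, was not tested. Whether the probes of these genes meet sequence differences between the strains was not examined.

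Ikzf1 had 10.54 and 10.65 in NOD fusion and 10.58 and 10.69 in NOD ires Treg, against 10.04 and 10.33 in B6 fusion and 10.29 and 10.15 in B6 ires Treg. All 4 NOD arrays lay above all 4 B6 arrays, as 20.7% of all tested genes did in one direction or the other. The difference was 0.41 ± 0.09 (adjusted p = 0.00254). In Tconv, Ikzf1 had 11.18 and 11.29 in NOD fusion and 11.29 and 11.27 in NOD ires, against 11.07 and 11.14 in B6 fusion and 11.06 and 10.98 in B6 ires. The arrays again did not overlap, as in 24.7% of all tested genes in Tconv, but the difference of 0.19 ± 0.09 did not pass (adjusted p = 0.117). With quantile normalization it was 0.30 and passed (adjusted p = 0.0104).

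Ikzf4 had 8.53 and 8.82 in NOD fusion and 8.87 and 9.19 in NOD ires Treg, against 8.06 and 8.60 in B6 fusion and 8.42 and 8.46 in B6 ires Treg. NOD fusion replicate 1 lay below B6 fusion replicate 2, so the groups overlapped by these arrays. The difference was 0.47 ± 0.12 (adjusted p = 0.0111). It was 0.33 without B6 fusion Treg replicate 1 (adjusted p = 0.0778), 0.39 without NOD fusion Treg replicate 2 (adjusted p = 0.0563) and 0.39 without NOD ires Treg replicate 2 (adjusted p = 0.0593), so the Eos call did not stand without these arrays. In Tconv, where the transcript was low, Ikzf4 differed by 0.08 ± 0.12 (adjusted p = 0.673).

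Ikzf2 in Tconv had 7.66 and 8.17 in NOD fusion and 7.68 and 7.34 in NOD ires, against 7.29 and 7.11 in B6 fusion and 6.71 and 7.29 in B6 ires. The 4 NOD arrays lay above the 4 B6 arrays, as 24.7% of all tested genes did in one direction or the other. The difference was 0.61 ± 0.13, or 1.53-fold (adjusted p = 0.00405). In Treg, Ikzf2 differed between NOD and B6 by 0.05 ± 0.13 (95% interval -0.22 to 0.32, adjusted p = 0.797).

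Some Treg markers, but not all, were also higher in NOD Tconv than in B6 Tconv. Of the 5 Treg markers 3 were called, all higher, against 15.9% of all tested genes called and 9.39% called higher. These were Foxp3 by 0.50 ± 0.16 (adjusted p = 0.0391), the TNF receptor family member Tnfrsf18 by 0.73 ± 0.08, and the interleukin-2 receptor chain Il2ra. Il2ra had 5.73 to 6.94 in NOD Tconv and 5.27 to 5.82 in B6 Tconv, where all arrays lay below the filter level. The other two were not called, Ctla4 at -0.20 ± 0.17 (adjusted p = 0.393) and Lrrc32 at -0.11 ± 0.12 (adjusted p = 0.529). The part of these markers in the Helios difference was not tested. The marker list summed to 956.9 to 1335 in NOD Tconv and to 707.1 to 888.9 in B6 Tconv. NOD fusion Tconv replicate 2 had the highest value of the 8 Tconv arrays for both Ikzf2 (8.17) and Foxp3 (8.18). Without it the Ikzf2 difference was 0.49 (adjusted p = 0.0311). In Treg the marker sum ran the other way, at 10267 to 11868 on NOD and 12828 to 14437 on B6.

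Aiolos gave no call by background, and Pegasus a call from only one of its probe sets, in Treg. Ikzf3 differed by 0.19 ± 0.09 in Treg (adjusted p = 0.114) and by -0.03 ± 0.09 in Tconv (adjusted p = 0.835). With quantile normalization the Treg difference of Ikzf3 was 0.33 and passed (adjusted p = 0.00916). The brighter Ikzf5 probe set differed by -0.03 ± 0.08 in Treg, while the probe set 10568529, whose number falls among chromosome 7 genes, differed by 0.34 ± 0.09 (adjusted p = 0.00856). That second probe set had 9.23 and 9.20 in NOD fusion and 9.12 and 9.14 in NOD ires Treg, against 9.03 and 8.89 in B6 fusion and 8.54 and 8.85 in B6 ires Treg. These arrays did not overlap, as in 20.7% of all tested genes in Treg. The strain effect in Treg minus that in Tconv called no member of the family (0.820% of all tested genes were called, and 2 members, Ikzf2 and Ikzf4, had an unadjusted p under 0.05).

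**Figure D3:**
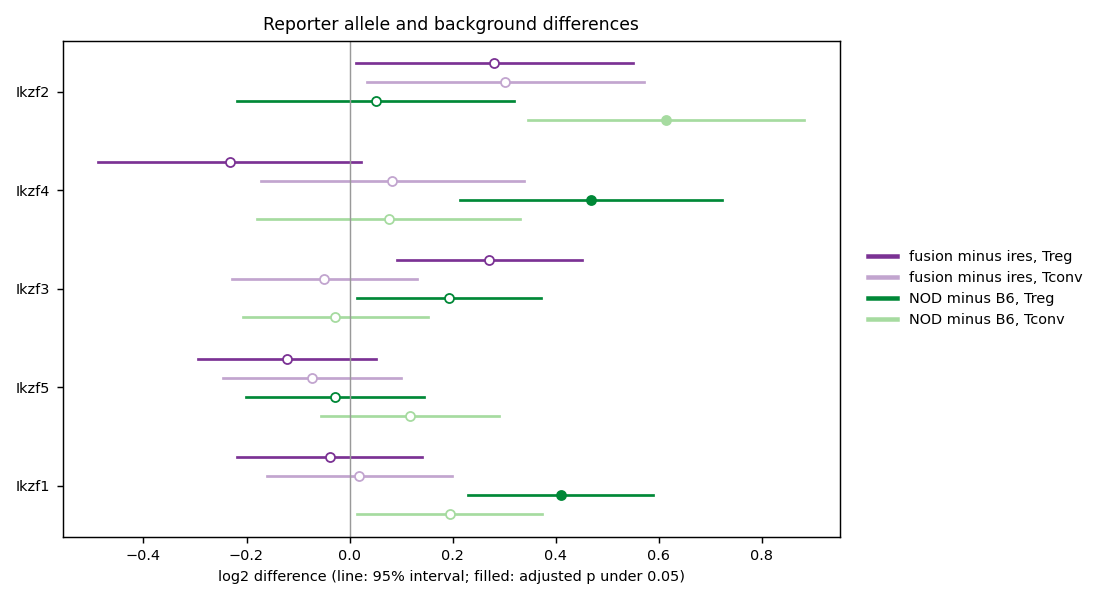
Log2 differences of fusion minus ires and of NOD minus B6 (horizontal axis), in Treg and in Tconv, for each Ikaros family gene (vertical axis); lines are 95% intervals and filled points have an adjusted p under 0.05. The filled points are Ikzf1 and Ikzf4 for NOD minus B6 in Treg (0.41 and 0.47) and Ikzf2 for NOD minus B6 in Tconv (0.61).

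**Figure D4:**
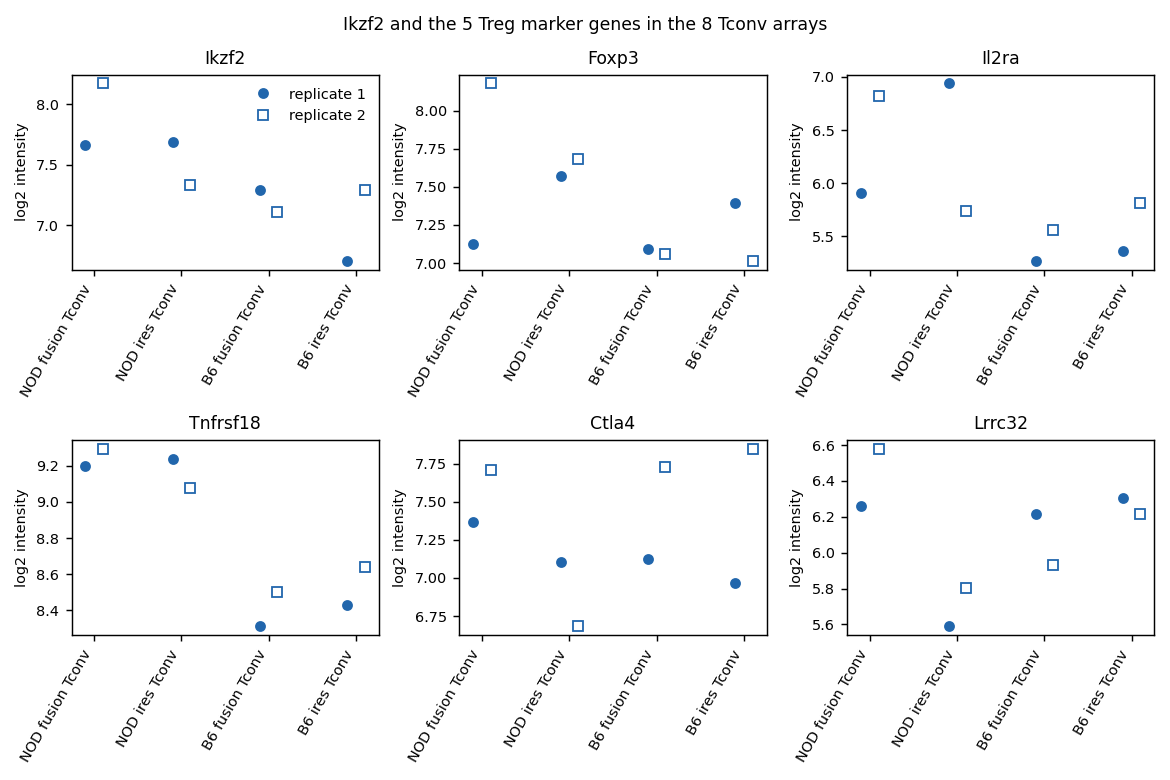
Log2 intensity (vertical axes) of Ikzf2 and of the Treg markers Foxp3, Il2ra, Tnfrsf18, Ctla4 and Lrrc32 on the 8 Tconv arrays by group (horizontal axes), replicate 1 as filled circles and replicate 2 as open squares. NOD fusion replicate 2 is highest for Ikzf2 (8.17) and Foxp3 (8.18). For Tnfrsf18 all NOD arrays lie above all B6 arrays, a separation that 24.7% of all tested genes show in either direction. For Ctla4 and Lrrc32 NOD and B6 arrays overlap.

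Across the 8 groups, the order of the levels differed from member to member. The 95% half-width of a difference between 2 groups was 0.25 for Ikzf1 and Ikzf3, 0.24 for Ikzf5, 0.36 for Ikzf4 and 0.38 for Ikzf2. It is not adjusted for the number of steps, and the steps were picked by sorting these same means. A step wider than it is therefore a description and not a test. For Ikzf2 the order ran NOD fusion Treg (mean 11.30), B6 fusion Treg (11.28), NOD ires Treg (11.04), B6 ires Treg (10.97), NOD fusion Tconv (7.92), NOD ires Tconv (7.51), B6 fusion Tconv (7.20) and last B6 ires Tconv. Beside the step from Treg to Tconv, only the step below NOD fusion Tconv, 0.41, was wider than its half-width. For Ikzf4 it ran NOD ires Treg (9.03), NOD fusion Treg (8.67), B6 ires Treg (8.44) and B6 fusion Treg (8.33), with the Tconv groups between 6.82 and 6.98. Among neighbours in that order, the step from Treg to Tconv alone was wider than the half-width.

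For Ikzf3 the order began NOD fusion Treg (10.81), B6 fusion Treg (10.73) and NOD ires Treg (10.65), followed by B6 ires Treg (10.35), which stood a step of 0.30 below. The Tconv groups, between 9.36 and 9.54, did not differ from their neighbours beyond the half-width. For Ikzf1 the 4 Tconv groups came first, from 11.28 in NOD ires to 11.02 in B6 ires. They were followed by NOD ires Treg (10.64) and NOD fusion Treg (10.59), and a step of 0.37 further down by B6 ires Treg (10.22) and B6 fusion Treg (10.19). No step of the brighter Ikzf5 probe set, between 9.20 and 9.40, was wider than its half-width.

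Genes with the most similar profile over the 8 group means were found by the root mean square (RMS) distance between profiles, each centred on its own mean. The profile of Ikzf2 itself had an RMS of 1.89. Nearest to it were Rgs1, a brake on G protein signalling (distance 0.28), the integrin chain Itgae (0.35), the costimulatory receptor Tnfrsf4, or OX40 (0.35), and the semaphorin receptor Nrp1 (0.36).

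For Ikzf4, with an RMS of 0.88, the nearest were the prion protein gene Prnp (distance 0.11), the proton pump subunit Atp6v0a1 (0.16), the guanine nucleotide exchange factor Vav2 (0.17) and Ift80, a component of cilia (0.17). For Ikzf3, with an RMS of 0.60, they were Glt28d2 (0.09), the metalloprotease Adam19 (0.10), Cldnd1 (0.10) and Samhd1, a nucleotide hydrolase (0.11). All were chosen for this likeness, so their own differences between Treg and Tconv are not tested here.

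Neighbouring genes in the order of the reference annotation were set beside each member. Between Treg and Tconv, 28.6% of all tested genes were called, 16.7% higher and 11.9% lower. Every member had a called neighbour in that comparison, so this is not particular to Ikzf4. On chromosome 10, both tested neighbours of Ikzf4 were higher in Treg as well: the growth factor receptor Erbb3 by 1.01 ± 0.10 (adjusted p = 1.18e-07) and the sulfite oxidase Suox by 0.66 ± 0.09 (adjusted p = 8.07e-06). In humans this stretch of genes lies in a region linked to type 1 diabetes. Erbb3 was also higher in NOD Treg than in B6 Treg, by 0.47 (adjusted p = 0.0224), as Ikzf4 was, while Suox differed by 0.16 (adjusted p = 0.364). In that comparison 21.0% of all tested genes were called, and the other called neighbours were lower on NOD. Lancl1 beside Ikzf2 was at -0.31 (adjusted p = 0.00853) and Ormdl3 beside Ikzf3 at -0.28 (adjusted p = 0.0476). Fignl1 was at -0.42 (adjusted p = 0.0233), beside Ikzf1, which was higher on NOD. On chromosome 1, the neighbours of Ikzf2 moved little: Lancl1 was lower in Treg by a difference of -0.20 ± 0.05 (adjusted p = 0.00902), and Bard1 differed by -0.04 ± 0.07.

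On chromosome 11, the adaptor gene Grb7 beside Ikzf3 was higher in Treg by 0.79 ± 0.07 (adjusted p = 2.65e-08), and Ormdl3, a regulator of sphingolipid synthesis on its other side, differed by -0.01 ± 0.07. Beside Ikzf1 on the same chromosome, Fignl1, a DNA repair factor, was called higher in Treg (adjusted p = 4.58e-05), against the direction of Ikzf1, at 5.61 to 6.59 in Treg and 5.08 to 5.78 in Tconv, with Tconv below the filter level of 6.06. Zpbp differed by -0.07 ± 0.06. Beside Ikzf5 on chromosome 7, the mitochondrial enzyme gene Acadsb was higher by 0.48 ± 0.07 (adjusted p = 5.25e-05), and Pstk differed by 0.00 ± 0.07.

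Partners through which Ikaros proteins act were compared between Treg and Tconv next. The counts stand beside 28.6% of all tested genes called, 16.7% higher and 11.9% lower, and nothing particular is read from shares near these. Of 13 NuRD subunits tested, 3 were higher and 1 lower in Treg, with a median of 0.08. The histone deacetylase Hdac1 rose by 0.34 ± 0.06 and the remodeller Chd3 by 0.28 ± 0.06, Mta3 by 0.17 ± 0.06, and Hdac2 fell by 0.19 ± 0.07 (adjusted p = 0.0470). Chd4, the remodeller best known as an Ikaros partner, differed by 0.05 ± 0.06 (adjusted p = 0.588).

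Among 7 other corepressors tested, 1 was higher and none lower (median 0.04): the deacetylase Hdac7, at 0.38 ± 0.07. Ctbp1, the corepressor paired with Eos, differed by -0.11 ± 0.06 (adjusted p = 0.179). Of 9 SWI/SNF subunits 2 were higher and 1 lower (median 0.05), with the ATPase Smarca2 at -0.49 ± 0.06, Smarcb1 at 0.26 ± 0.07 and Smarcc1 at 0.24 ± 0.06. Of 6 genes of the cereblon ligase, the machinery through which thalidomide-type drugs destroy Ikaros and Aiolos in human cells, only Ddb1 was called, higher by 0.16 ± 0.06 (adjusted p = 0.0424; median of the 6 genes 0.06). Crbn, cereblon itself, differed by 0.03 ± 0.06 between Treg and Tconv. It was lower on NOD than on B6, by -0.58 ± 0.09 in Treg (adjusted p = 0.000131) and -0.46 ± 0.09 in Tconv (adjusted p = 0.00161).

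Of 10 tested genes of Notch signalling and early lymphoid development that Ikaros is known to restrain or drive, 1 was higher and 3 lower in Treg (median -0.09). Notch1 rose by 0.19 ± 0.06. The Notch target Dtx1 differed by -0.30 ± 0.07 and the interleukin-7 receptor Il7r by -0.82 ± 0.07. The terminal transferase gene Dntt, also called lower, had 5.25 to 5.74 in Treg, all below the filter level of 6.06, against 5.93 to 6.36 in Tconv, so no size is given. Of 11 tested cytokine and helper lineage genes linked to the family in mature T cells, 6 were higher and 1 lower (median 0.20). Prdm1, which encodes Blimp-1, differed by 1.77 ± 0.08, Gata3 by 0.83 ± 0.07, Bcl6 by 0.30 ± 0.07, Stat3 by 0.29 ± 0.05 and the interleukin-6 receptor Il6ra by -0.21 ± 0.07. Socs3 also rose. The cytokine gene Il10, called higher, had 4.86 to 7.12 in Treg and 4.39 to 5.37 in Tconv, where all arrays lay below the filter level. It passed the filter only through the B6 fusion Treg arrays, so no size is given. Il2, a gene that Aiolos and Eos are known to silence, did not pass the filter, with values of 4.20 to 4.84 in Treg and 4.67 to 5.28 in Tconv.

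Of 11 tested Foxp3 cofactors and T cell transcription factors, 5 were higher and 4 lower (median -0.11), against 28.6% of all tested genes called. Irf4 rose by 1.75 ± 0.09, Gata1 by 1.35 ± 0.09 and Myb by 0.42 ± 0.08. Foxp3 and Foxo1 also rose. Lef1 fell by 1.03 ± 0.07, the chromatin organizer Satb1 fell by 0.94 ± 0.07, Bach2 fell by 0.57 ± 0.08 and Runx3 fell by 0.41 ± 0.06. Between fusion and ires Treg, 0.609% of all tested genes were called. Of the 11 cytokine and lineage genes 3 were called, Prdm1 at 1.01 ± 0.12, Bcl6, a known target of Aiolos, at -0.45 ± 0.10, and Il10. Il10 had 5.46 to 7.12 in fusion Treg and 4.86 to 5.62 in ires Treg, where all arrays lay below the filter level of 6.06. It was tested only through the B6 fusion Treg arrays, where it was high, so nothing is read from this call. Of the 10 Notch and early lymphoid genes 1 was called, Il7r at 0.44 ± 0.09. No gene of the other lists of partners and linked genes was called.

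Between NOD and B6 Treg, where 21.0% of all tested genes were called, 4 of the 11 cofactors and transcription factors were called, all higher on NOD: Foxo1 at 0.40 ± 0.10, Bach2 at 0.38 ± 0.11, Satb1 at 0.34 ± 0.10 and Runx3 at 0.26 ± 0.09. Of the 11 cytokine and lineage genes 3 were higher and 1 lower, with Il6ra at 0.53 ± 0.09, Bcl6 at 0.44 ± 0.10, Stat3 at 0.25 ± 0.08 and Il10. Il10 had 4.86 to 5.76 in NOD Treg, all below the filter level of 6.06, and 5.15 to 7.12 in B6 Treg. It passed the filter only through the B6 fusion Treg arrays, so nothing is read from its call. Of the 13 NuRD subunits, Gatad2b at 0.37 ± 0.09 and Chd3 at 0.24 ± 0.08 were called, and of the 9 SWI/SNF subunits Smarca2 at 0.34 ± 0.09 and Smarcd1 at 0.32 ± 0.09. Of the 10 Notch and early lymphoid genes 1 was higher and 3 lower, with Notch1 at 0.24 ± 0.08, Nrarp at -0.42 ± 0.10, Il7r at -0.30 ± 0.09 and Hes1. Hes1 had 5.70 to 6.06 in NOD Treg, all below the filter level, and 5.99 to 6.26 in B6 Treg. In Tconv, 15.9% of all tested genes were called between NOD and B6. Of the 11 cofactors and transcription factors, Irf4 was higher on NOD by 0.51 ± 0.13, Runx1 by 0.34 ± 0.09 and Foxp3 by 0.50 ± 0.16. Myb was lower, at -0.61 ± 0.11. Of the 9 SWI/SNF subunits, Smarcd1 at 0.34 ± 0.09 and Smarce1 at 0.26 ± 0.08 were called. Of the 10 Notch and early lymphoid genes, Dtx1 at 0.33 ± 0.11 and Notch1 at 0.29 ± 0.08 were called. Of the 11 cytokine and lineage genes, Prdm1 was called, at 0.36 ± 0.12.

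**Figure D5:**
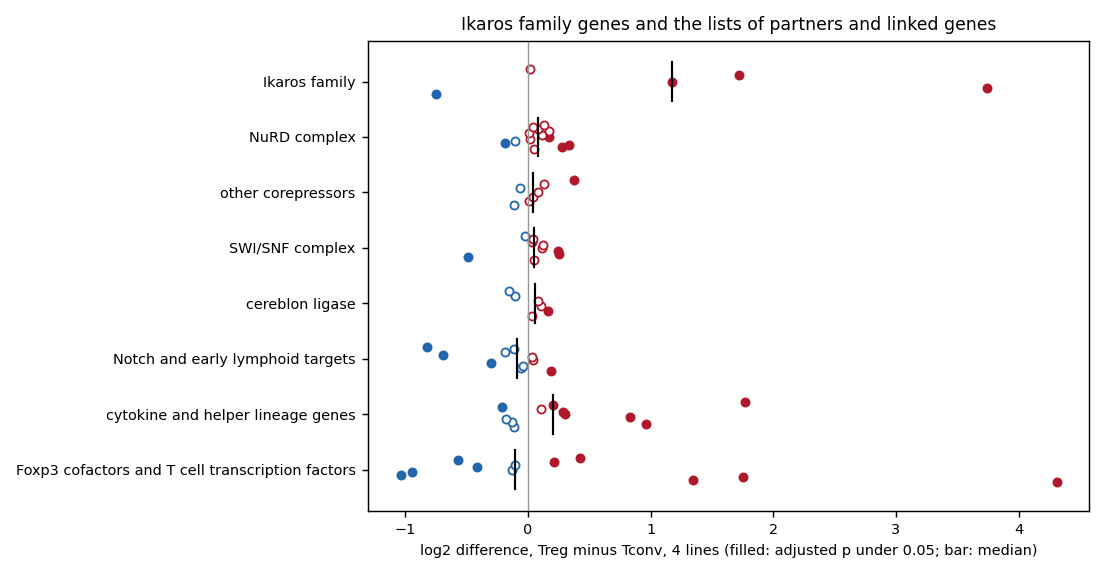
Log2 difference of Treg minus Tconv over the 4 lines (horizontal axis) for the Ikaros family and for each list of partners and linked genes (vertical axis); each point is a tested gene, filled where the adjusted p is under 0.05, and the bar is the list's median. The medians of the partner lists lie between -0.11 and 0.20, against 1.17 for the 5 Ikaros family genes.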

How the data were processed

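RNA of 16 sorted cell samples was measured on 16 arrays. Per the submitters' processing notes, Affymetrix Power Tools and RMA were used. What the authors deposited is a linear intensity per probe set, with array medians between 86.7 and 99.0. Tool versions and genome build: not given in the sources used here. Of 25108 probe sets, 21157 carried 1 symbol in the platform's table, 1341 several and 2610 none. Here log2 was taken with nothing added, and a gene's brightest probe set stood for it. Genes above the 40th percentile (log2 6.06) on at least 2 arrays, 12798 in all, were tested with limma 3.58.1 in R 4.3.3, with 1 mean per group and moderated variances, two-sided, in 14 contrasts. No arrays were identical.

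Named were the 5 members, up to 6 called genes per list, 4 similar genes per member with at least 2-fold difference, and nearest neighbours; the text leaves some out. Chd4, Ctbp1 and Il2 were named after their values were seen. The members, lists and tests were chosen with earlier results of these data known. Reference names and order came from RefSeq on GRCm38.p6. In simulated data with 200 changed genes among 12798, limma recovered 93% of changes of 0.5 (log2) between Treg and Tconv over the 4 lines, 71.1% between fusion and ires in Treg and 73% between NOD and B6 in Treg. For the allele effect in NOD minus B6 Treg it recovered 0% at 0.5 and 72.1% at 1. The number of arrays limits the precision. Alternatives are listed in the closing section.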

Additional observations from a re-analysis of the deposited data

How the results depend on the processing

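The filter was dropped or raised to the 60th percentile, and arrays were median-centred or quantile-normalized. Also tried were a pseudocount of 16, array weights, trend and robust variances, averaged probe sets, fits of only the groups compared, a replicate block, and leaving out each array in turn. Under all of them Ikzf1, Ikzf2, Ikzf3 and Ikzf4 kept their direction and call between Treg and Tconv, pooled (-0.79 to -0.72, 3.62 to 3.82, 1.14 to 1.21 and 1.60 to 1.79) and in each line. Where an array is left out, its group's lone array is taken to vary like the others. Between NOD and B6, the number of members called in Treg was 1 to 2 when each array was left out, and 3 with quantile normalization, where Ikzf3 was added. In Tconv it was 2 with quantile normalization, where Ikzf1 was called beside Ikzf2. For the strain effect in Treg minus Tconv it was 0 to 1 when each array was left out. The other probe set of Ikzf5 reversed the NOD minus B6 difference in Treg to 0.34; the cause was not tested. Same-numbered arrays deviated together in 16 of 28 pairs of groups (r above 0.1; range -0.37 to 0.47), short of every pair, so the numbers were not treated as pairs; this does not show that they share nothing. With the replicate block the genes called were 3981 between Treg and Tconv over the 4 lines (3664 without) and 2655 between NOD and B6 Tconv (2033 without). The difference of Ikzf4 between NOD and B6 Treg stayed at 0.47 (adjusted p = 0.00351), and no call of a member changed.

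Counts over all tested genes moved by over 1.5 times in several comparisons. For fusion against ires they were 30 to 115 in Treg (78 reported), 11 to 168 in B6 Treg (44), 2 to 17 in NOD Treg (13) and 2 to 12 in Tconv (3). For NOD against B6 they were 1597 to 3208 in Treg (2690) and 841 to 2655 in Tconv (2033). For Treg against Tconv they were 1149 to 2119 in B6 fusion (1800), 769 to 1546 in B6 ires (1264), 891 to 1618 in NOD fusion (1403) and 746 to 1386 in NOD ires (1185). The differences of effects gave 3 to 9 for the allele in NOD minus B6 Treg (5), 2 to 21 for the allele in Treg minus Tconv (6) and 69 to 148 for the strain in Treg minus Tconv (105). Ikzf4 and Ikzf2 in Tconv lay close to the filter level of 6.06, at lowest values of 6.70 and 6.71.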
